A study of Homo sapiens with 12 samples.

Results

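Interferon-stimulated genes were followed in 12 RNA-sequencing libraries of CAL-27 and SCC-15, both established cell lines of human oral squamous cell carcinoma. The 58 genes were taken by symbol from a list of type I interferon-response genes and factors, with the IFITM genes left out. Each symbol was found once among the 58735 lines of the count table, and all 58 were among the 16946 genes that passed the filter on low counts. The 4 groups held 3 libraries each. In the first 2 groups CAL-27 was labelled shTTK or shControl, and in the others SCC-15 was labelled shTTK or shControl. A short hairpin RNA (shRNA) against TTK, also called MPS1, a kinase of the mitotic spindle checkpoint, defines the shTTK groups, whose genotype label is TTK knockdown. The shControl groups carry the genotype label WT, so it is not settled whether a control hairpin was present. All 4 groups are labelled untreated and batch 1, and the number of hairpins and clones is not given in the sources used here. The title of the series names mTORC1 and NF-kB, and the design sets the knockdown cells of each line against their controls.

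Type I interferons are cytokines that most cells release when they sense foreign or misplaced nucleic acid. They bind the IFNAR1 and IFNAR2 receptor, whose kinases JAK1 and TYK2 activate transcription factors of the STAT family, STAT2 among them. With IRF9 these form the ISGF3 complex, which binds the interferon-stimulated response element (ISRE) in the promoters of interferon-stimulated genes. The products sense viral RNA, degrade it, block its translation, trap virions or feed back on the pathway, and many carcinoma lines keep a basal level of them without added interferon.

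The promoters of 4 genes that moved far or in opposite directions are shown, picked after their values were seen. XAF1, IRF9 and UBE2L6 also moved far or in opposite directions, but no ISRE letters were found in their searched windows, and they are not shown. TRIM22 moved in opposite directions too, but no promoter entry was found for it. Further genes were left out, among them IFI6 and RSAD2, whose promoters held matches. IFI27 was higher with shTTK in both lines, IFI44L and TNFSF10 were higher in CAL-27 and lower in SCC-15, and EPSTI1 was called only in SCC-15. Each line gives the 200 bases before a RefSeq transcription start (GRCh38.p14) on the gene's strand, 5′ to 3′. The start was the first listed one with a match in this stretch, so that a match is present was fixed by the choice. Capitals mark matches to the letters of the ISRE, searched as GAAA, any 2 bases and GAAA, or, on the other strand, TTTC, any 2 bases and TTTC.
IFI27 (chr14:94110536-94110735, plus strand): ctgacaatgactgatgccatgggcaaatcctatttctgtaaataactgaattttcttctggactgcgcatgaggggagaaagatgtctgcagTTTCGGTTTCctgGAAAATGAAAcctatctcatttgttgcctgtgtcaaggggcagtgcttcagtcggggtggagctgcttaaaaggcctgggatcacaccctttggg
IFI44L (chr1:78620248-78620447, plus strand): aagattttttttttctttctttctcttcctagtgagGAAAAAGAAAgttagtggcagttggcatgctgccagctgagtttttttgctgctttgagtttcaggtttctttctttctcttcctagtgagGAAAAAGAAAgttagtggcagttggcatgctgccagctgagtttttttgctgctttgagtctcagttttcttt
TNFSF10 (chr3:172523431-172523630, minus strand): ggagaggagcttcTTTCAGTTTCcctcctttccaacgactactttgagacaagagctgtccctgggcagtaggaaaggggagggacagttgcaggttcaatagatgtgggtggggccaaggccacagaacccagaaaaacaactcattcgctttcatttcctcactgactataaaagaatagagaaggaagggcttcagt
EPSTI1 (chr13:42992242-42992441, minus strand): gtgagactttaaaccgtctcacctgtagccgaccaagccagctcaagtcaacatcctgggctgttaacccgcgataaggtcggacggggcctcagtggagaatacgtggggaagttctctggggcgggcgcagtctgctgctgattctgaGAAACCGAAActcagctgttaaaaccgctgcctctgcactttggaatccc
IFI27 and IFI44L each held 2 matches in this stretch, and TNFSF10 and EPSTI1 held 1 each. The match of EPSTI1 began 50 bases before the start, and that of TNFSF10 began 187 bases before it.

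Total counts per library lay between 16176655 and 18484112. The targeted gene TTK (plus strand of chromosome 6, 80003887 to 80042527, GRCh38) did not overlap between groups in either line. It averaged 33.9 ± 1.57 CPM in CAL-27 shTTK and 49.4 ± 3.58 CPM in CAL-27 shControl libraries (SD, n = 3 each), and 30.1 ± 3.80 CPM in SCC-15 shTTK and 69.9 ± 2.77 CPM in SCC-15 shControl libraries, so the direction fitted the labels. CPM are counts per 1000000 of a library's total, with TMM scaling. The libraries numbered 1 stood apart from the other two of their group in SCC-15, and the calls lost without both of them are given with each comparison. All 10 squamous epithelial markers were detected in all groups, but they did not move together. With shTTK 7 were called higher and 2 lower in CAL-27 (log2 fold changes from -0.28 to 4.40). In SCC-15 4 were called higher and 4 lower (-1.05 to 0.75). Between the controls 8 of the markers were higher and 2 lower in SCC-15 than in CAL-27. Their summed level was 5402 to 5476 CPM in CAL-27 shTTK libraries, against 3312 to 3462 CPM in CAL-27 shControl libraries, and it was 9056 to 9066 CPM in SCC-15 shTTK libraries, against 9293 to 9635 CPM in SCC-15 shControl libraries. The part of this difference in the results was not tested. Of the 10 leukocyte markers 2 were at 0 in all 12 libraries. In CAL-27, 4 were at 0 with shTTK and 3 with shControl, PTPRC among them, and in SCC-15 4 with shTTK and 5 with shControl. The summed level was 13.3 to 16.9 CPM in CAL-27 shTTK libraries, against 11.7 to 15.0 CPM in CAL-27 shControl libraries. In SCC-15 that sum was 1.73 to 2.86 CPM with shTTK and 1.78 to 2.87 CPM with shControl. Of the 2 leukocyte markers that passed the count filter, 1 was called higher and 1 lower with shTTK in CAL-27 (log2 fold change 0.46 and -0.74). Neither was called with shTTK in SCC-15, and both were called lower in SCC-15 than in CAL-27 controls. Of 5 markers of plasmacytoid dendritic cells, the cell type known for the largest interferon release, CLEC4C and LILRA4 were at 0 in all 12 libraries. The 5 summed to 1.72 to 3.02 CPM in CAL-27 shTTK libraries, against 1.43 to 2.48 CPM in CAL-27 shControl libraries, and to 3.46 to 4.55 CPM in SCC-15 shTTK libraries, against 4.02 to 5.57 CPM in SCC-15 shControl libraries. The 2 of them that passed the count filter were both called higher in SCC-15 than in CAL-27 controls. The 8 fibroblast markers summed to 41.5 to 42.3 CPM in CAL-27 shTTK libraries, against 32.0 to 37.7 CPM in CAL-27 shControl libraries, and the 6 endothelial markers to 72.9 to 75.1 CPM, against 102 to 109.9 CPM. In SCC-15 the fibroblast markers summed to 20.6 to 22.7 CPM with shTTK and 21.2 to 23.0 CPM with shControl, and the endothelial markers to 1.75 to 2.36 CPM with shTTK and 1.88 to 2.58 CPM with shControl. With shTTK in CAL-27, 2 of the 4 tested fibroblast markers were called higher (-0.30 to 2.01). Of the 3 tested endothelial markers 2 were called lower there (-1.42 to 0.29). Marker calls are to be read against all genes, of which 11.6% were higher and 15.7% lower in CAL-27, and 13.4% and 14.3% in SCC-15.

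In CAL-27, 31 of the 58 genes were higher and 4 were lower with shTTK, and 23 were not called. A gene was called where edgeR's quasi-likelihood test gave an adjusted p under 0.05 over all 16946 genes. Of all genes tested, 11.6% were called higher and 15.7% lower. The share of higher calls among the 58, 53.4%, stood above that background, and the share of lower calls, 6.90%, stood below it. The 58 genes were chosen with earlier results of these data known, so comparing them with all genes, here and in SCC-15, is a description and no test. Counts within the small groups of genes below are to be read against the same background. The median log2 fold change of the 58 genes was 0.21, and that of all genes was -0.01. The changes were mostly small, since only IFI27, IFI44L and XAF1 rose by at least 2-fold. The share of all genes at that cut was not counted, so this is a description only. In 37 of the 58 every shTTK library lay above every control library, and in 7 every one lay below, against 17.1% and 21.3% of all genes. Summed over the 58 genes, the level was 5075 ± 30.2 CPM in CAL-27 shTTK and 4625 ± 55.6 CPM in CAL-27 shControl libraries (SD, n = 3 each). Separate cultures are not stated in the labels, so p-values measure only how far these libraries spread, and that spread may be technical. In bulk RNA of a cell line, fewer cells that express a gene and less RNA per cell cannot be told apart.

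**Figure D1:**
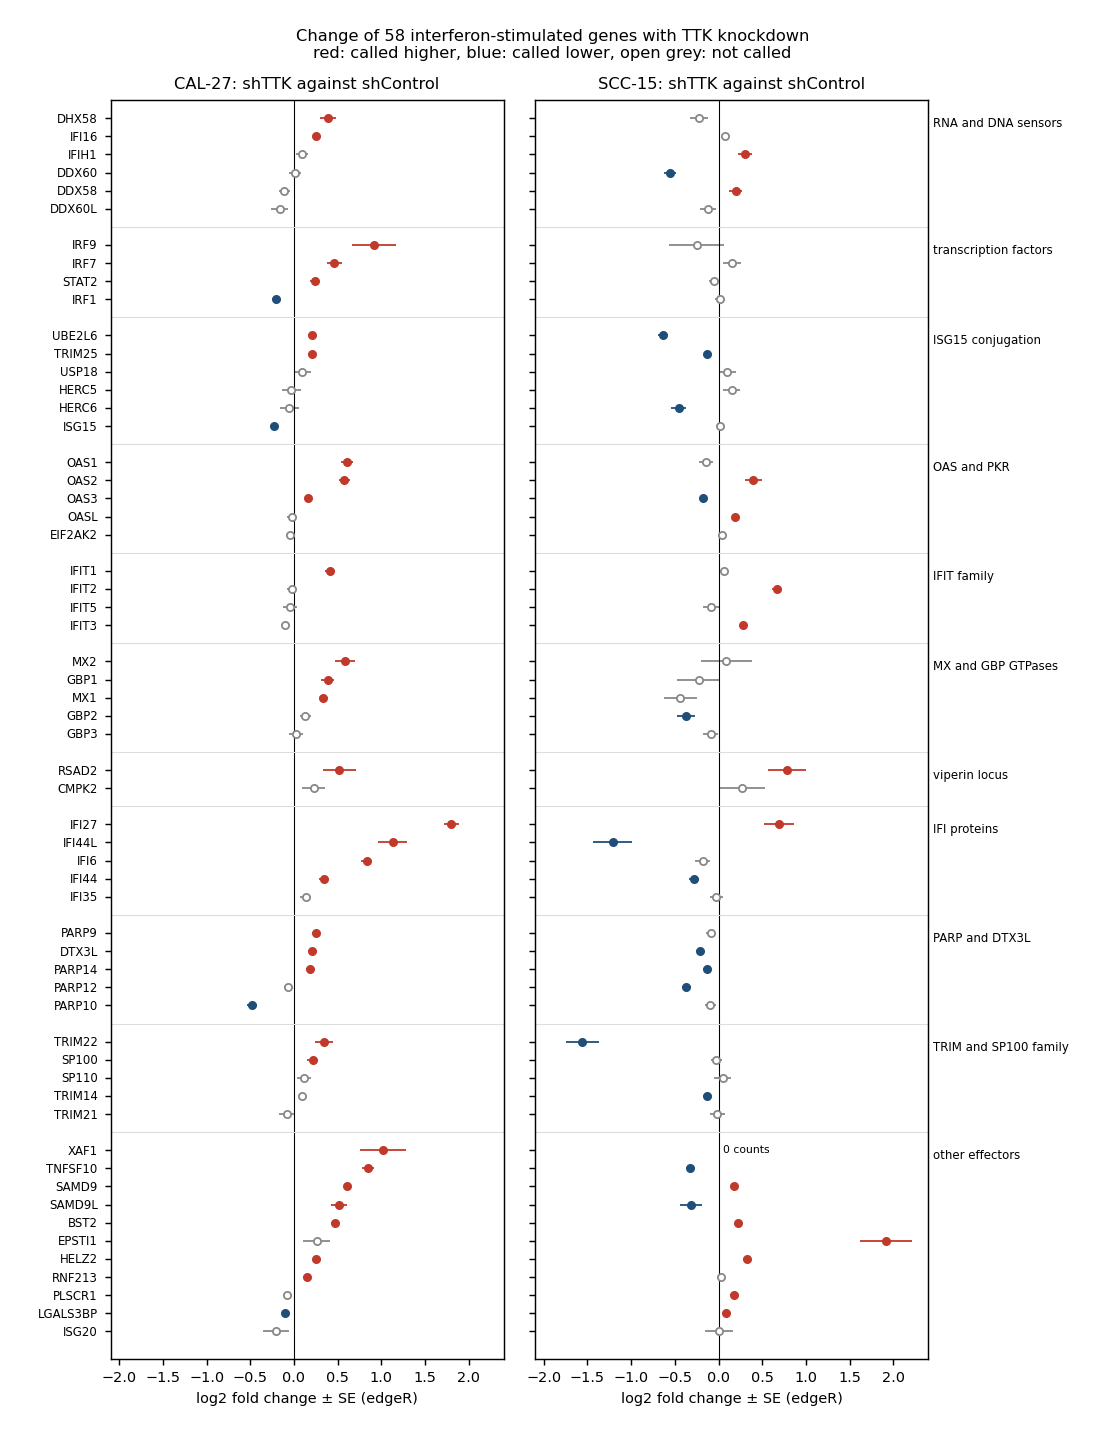
Log2 fold change of each of the 58 genes (x axis, with its SE as a bar) for shTTK against shControl in CAL-27 (left) and SCC-15 (right), grouped by role. Filled red points were called higher, filled blue points lower and open points neither. Most filled points lie right of 0 in CAL-27 (31 higher, 4 lower), and they lie on both sides in SCC-15 (14 higher, 15 lower).

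IFI27 changed most in CAL-27. It encodes a small membrane protein of mitochondria and nuclear envelope and is among the genes most strongly induced by interferon alpha (chromosome 14, 94104836 to 94116698, plus strand, GRCh38). It stood at 40.5, 42.6 and 40.6 CPM in the shTTK libraries, against 11.3, 12.5 and 11.6 CPM in the control libraries. The groups were far apart, and each varied little within itself. The log2 fold change was 1.80 ± 0.090 (SE), 3.49-fold, with an edgeR adjusted p of 1.02e-28. IFI6, which encodes a related protein that delays apoptosis, stood at 65.0, 68.3 and 63.4 CPM with shTTK, against 37.7, 36.6 and 36.3 CPM with shControl. Its groups did not overlap either, and its log2 fold change was 0.83 ± 0.065 (edgeR adjusted p = 2.53e-18). IFI44L, a neighbour and paralog of IFI44 on chromosome 1 (78619922 to 78646145), stood at 9.42, 12.1 and 10.2 CPM with shTTK, against 4.29, 5.04 and 5.14 CPM with shControl. All 3 shTTK libraries lay above the controls, with a log2 fold change of 1.13 ± 0.16 (edgeR adjusted p = 2.65e-08). IFI44 rose by 0.35, and IFI35 (log2 fold change 0.13) was not called.

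The factors that carry the interferon signal to the genome were called in CAL-27, 3 higher and 1 lower of 4. IRF9, the DNA-binding subunit of ISGF3 (chromosome 14, 24161053 to 24166565), stood at 3.63, 3.08 and 3.26 CPM in the shTTK libraries and at 1.89, 1.37 and 2.04 CPM in the control libraries. It was low in all 12 libraries, yet the CAL-27 groups did not overlap, and its log2 fold change was 0.91 ± 0.25 (edgeR adjusted p = 0.00377). Of its exon bases, 48.4% also belong to AL136295.5 on the same strand, so its counts are uncertain. IRF7, the factor that amplifies interferon alpha production, stood at 30.0, 29.5 and 31.9 CPM with shTTK, against 22.7, 21.8 and 21.9 CPM with shControl. Its groups were apart, with a log2 fold change of 0.46 ± 0.084 (edgeR adjusted p = 6.86e-06). STAT2 rose by 0.24 on the log2 scale. IRF1, a factor that also answers interferon gamma and NF-kB, fell by 0.20, and 22.0% of its exon bases lie opposite C5orf56.

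Among the antiviral enzymes, 3 of the 5 OAS and PKR genes were higher in CAL-27. The OAS proteins make 2′-5′ oligoadenylate on double-stranded RNA, which activates RNase L. OAS1 (chromosome 12, 112906777 to 112933222) stood at 52.4, 58.6 and 54.8 CPM with shTTK, against 35.5, 34.6 and 38.5 CPM with shControl, with no overlap. Its log2 fold change was 0.61 ± 0.068 (edgeR adjusted p = 1.8e-11). OAS2 stood at 71.7, 76.2 and 71.5 CPM with shTTK, against 45.8, 48.8 and 52.6 CPM with shControl, again with no overlap (log2 fold change 0.58 ± 0.061, edgeR adjusted p = 1.31e-12). OAS3 rose by only 0.16. OASL, which enhances sensing by RIG-I (-0.02), and EIF2AK2, the kinase PKR that halts translation (-0.048), were not called. Of the 4 IFIT genes, a family of antiviral proteins, IFIT1 rose by 0.41 and the others had log2 fold changes between -0.10 and -0.026 that were not called. RSAD2, which encodes viperin and makes a chain-terminating nucleotide, stood at 5.97, 6.09 and 6.71 CPM with shTTK, against 4.17, 5.32 and 3.53 CPM with shControl. Its groups were apart, though the controls were spread (log2 fold change 0.52 ± 0.19, edgeR adjusted p = 0.0333). This call was lost with DESeq2 and without shTTK library 2 or 3 or shControl library 1 or 3, where the log2 fold change lay between 0.39 and 0.54.

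The dynamin-like GTPases that trap viral particles and vacuoles were mostly higher in CAL-27, with 3 of 5 called higher by edgeR, DESeq2 and limma-voom, and 4 at an unadjusted p under 0.05. The fifth, GBP3, was 0.025. MX1 stood at 104, 99.8 and 101 CPM with shTTK, against 80.9, 81.4 and 78.4 CPM with shControl, with no overlap and a log2 fold change of 0.34 ± 0.055 (edgeR adjusted p = 6.73e-07). MX2 stood at 25.1, 20.9 and 17.5 CPM with shTTK, against 14.2, 14.6 and 13.4 CPM with shControl. The shTTK libraries of MX2 were spread but all above the controls (log2 fold change 0.58 ± 0.12, edgeR adjusted p = 4.32e-05). GBP1, a GTPase that coats bacterial and parasite vacuoles, stood at 198, 189 and 202 CPM with shTTK, against 139.8, 172 and 139 CPM with shControl. One of its control libraries was higher than the other two, and all lay below the shTTK libraries (log2 fold change 0.39 ± 0.075, edgeR adjusted p = 0.00197). How reads that match several places were counted is not given, so the counts of close paralogs such as the GBP, OAS, IFIT, MX, SAMD9 and DDX60 genes are uncertain.

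Several other effectors were higher in CAL-27, 7 of 11, with 1 lower. XAF1, which counters the apoptosis inhibitor XIAP (chromosome 17, 6755447 to 6775647, plus strand), stood at 3.57, 4.50 and 3.75 CPM with shTTK, against 1.89, 2.03 and 1.92 CPM with shControl. The groups did not overlap, and the log2 fold change was 1.02 ± 0.26 (edgeR adjusted p = 0.00184). TNFSF10, the death ligand TRAIL (chromosome 3, 172505508 to 172523507, minus strand), stood at 38.1, 36.7 and 34.3 CPM with shTTK, against 18.2, 20.1 and 22.4 CPM with shControl. Its lowest shTTK library lay well above its highest control, with a log2 fold change of 0.85 ± 0.070 (edgeR adjusted p = 4.14e-17). SAMD9, an antiviral restriction factor that limits cell growth, stood at 103, 101 and 98.7 CPM with shTTK, against 68.0, 67.2 and 62.7 CPM with shControl. It was apart in all libraries and had a log2 fold change of 0.61 ± 0.043 (edgeR adjusted p = 2.32e-20). BST2, known as tetherin for holding budding virions at the cell surface, rose by 0.47, and SAMD9L rose by 0.52. LGALS3BP, a secreted glycoprotein with the highest control level per kb of exon of the 58 in this line, fell by 0.10.

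The 4 genes called lower in CAL-27 were PARP10, ISG15, IRF1 and LGALS3BP. PARP10, a mono-ADP-ribosyltransferase, stood at 36.6, 40.1 and 40.1 CPM with shTTK, against 58.5, 53.4 and 50.9 CPM with shControl. The groups did not overlap, and the log2 fold change was -0.48 ± 0.061 (edgeR adjusted p = 6.36e-10). ISG15, the ubiquitin-like protein that is attached to other proteins in infected cells, fell by 0.23 on the log2 scale, whereas UBE2L6, its conjugating enzyme, and TRIM25, a ligase for it and for ubiquitin, rose by 0.21 and 0.20. The RNA sensors RIG-I (DDX58, -0.11) and MDA5 (IFIH1, 0.089) were not called, while their relative DHX58 rose by 0.39 and the DNA sensor IFI16 by 0.26. PARP9 and its ubiquitin ligase partner DTX3L rose, as did PARP14, by 0.25, 0.21 and 0.18. Without CAL-27 shControl library 2 the lower calls were 2, since IRF1 (-0.13) and LGALS3BP (-0.065) were no longer called. The LGALS3BP call was also lost with no count filter, and leaving out any 1 of 4 libraries ended it.

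**Figure D2:**
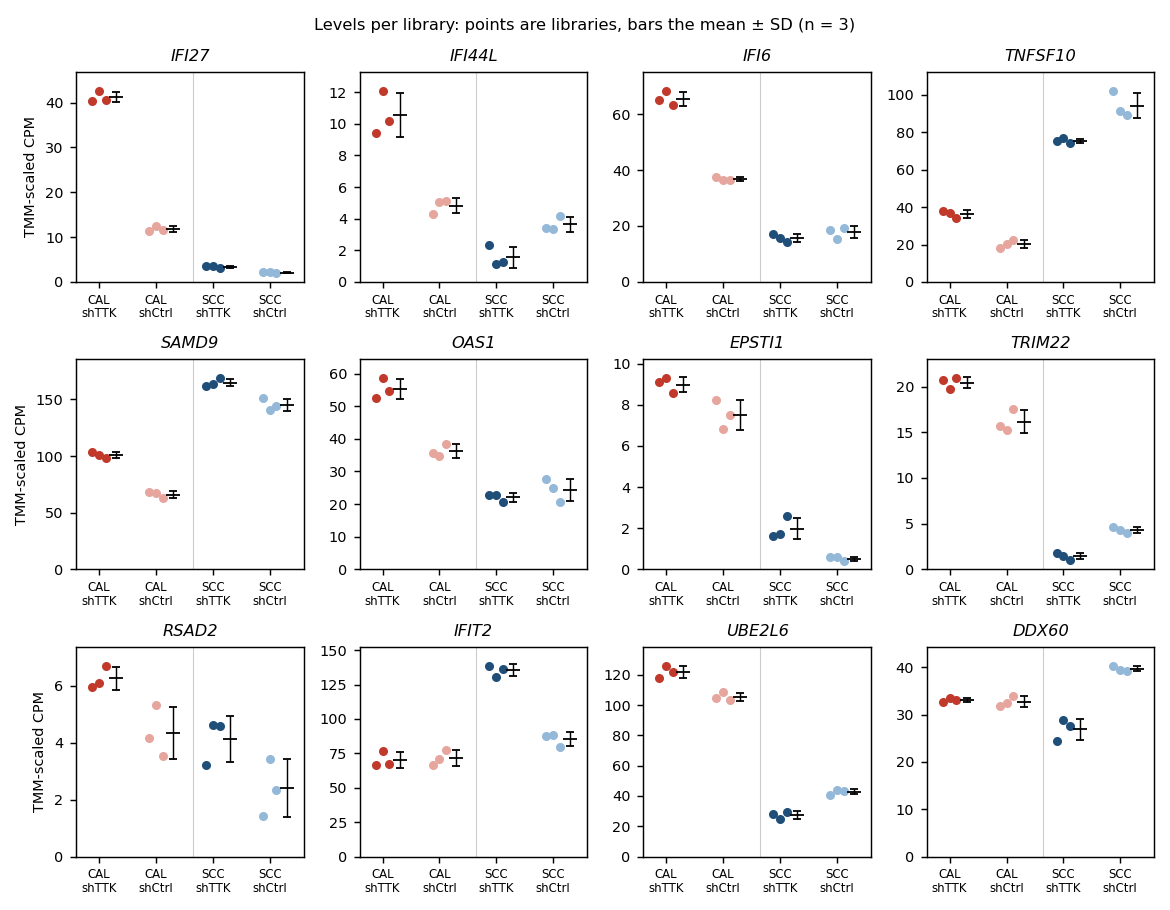
TMM-scaled CPM (y axis, from 0) of 12 genes in each library, with CAL-27 shTTK, CAL-27 shControl, SCC-15 shTTK and SCC-15 shControl from left to right and bars for the mean ± SD of 3 libraries. IFI27 is higher with shTTK in both lines, IFI44L, TNFSF10, TRIM22 and UBE2L6 move in opposite directions in the 2 lines, and EPSTI1, IFIT2 and DDX60 were called in SCC-15 and not in CAL-27.

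In SCC-15 the 58 genes were divided. With shTTK 14 were called higher and 15 lower, and 29 were not called. The background was 13.4% of all genes higher and 14.3% lower, against 24.1% and 25.9% of the 58. Counts within small groups of genes in this line are to be read against that background. Their median log2 fold change was -0.02, and that of all genes was 0. EPSTI1 was the only gene of the 58 higher by at least 2-fold, and TRIM22 and IFI44L were lower by at least that. For this line, too, the share of all genes at that cut was not counted. In 12 genes every shTTK library lay above every control library, and in 16 every one lay below, against 19.3% and 19.6% of all genes. The summed level of the 58 genes was 3957 ± 53.2 CPM in SCC-15 shTTK and 3875 ± 32.8 CPM in SCC-15 shControl libraries (SD, n = 3 each). Without both SCC-15 libraries numbered 1, 14 genes were higher and 12 lower, and the calls of GBP2 (log2 fold change -0.32), PARP14 (-0.10), SAMD9L (-0.22) and LGALS3BP (0.040) were lost. The counts of that fit include newly called genes, which are not listed.

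EPSTI1, first described as a gene that epithelial cells express next to stroma and known to be induced by interferon, changed most in SCC-15 (chromosome 13, 42886388 to 42992271, minus strand). It stood at 1.63, 1.73 and 2.57 CPM in the shTTK libraries, against 0.571, 0.574 and 0.410 CPM in the control libraries. The level was low in both groups, and they did not overlap. The log2 fold change was 1.92 ± 0.30, 3.78-fold, with an edgeR adjusted p of 2.58e-07. In CAL-27 it was 0.26 ± 0.15 and not called, with 8.98 ± 0.384 CPM in shTTK and 7.51 ± 0.718 CPM in shControl libraries (SD, n = 3 each). TRIM22, an E3 ligase that restricts several viruses (chromosome 11, 5689689 to 5737089, plus strand), stood at 1.81, 1.50 and 1.06 CPM with shTTK, against 4.63, 4.30 and 3.93 CPM with shControl. Every shTTK library was under the lowest control, with a log2 fold change of -1.56 ± 0.19 (edgeR adjusted p = 2.97e-10), and its level was 33.9% of that with shControl. In CAL-27, TRIM22 rose to 20.7, 19.8 and 20.9 CPM with shTTK, against 15.7, 15.3 and 17.6 CPM with shControl (log2 fold change 0.34 ± 0.10, edgeR adjusted p = 0.00808). OR56B1, which shares 10.7% of TRIM22 exon bases on the same strand, was at 0 in all libraries.

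The IFI proteins split in SCC-15. IFI44L stood at 2.33, 1.15 and 1.23 CPM with shTTK, against 3.43, 3.33 and 4.16 CPM with shControl. The shTTK library numbered 1 was the highest of its group and still below all controls (log2 fold change -1.21 ± 0.22, edgeR adjusted p = 7.86e-06). IFI27 was low in this line and higher with shTTK, at 3.50, 3.46 and 3.13 CPM, against 2.11, 2.18 and 1.94 CPM with shControl. Its groups were apart, with a log2 fold change of 0.69 ± 0.18 (edgeR adjusted p = 0.00133). IFI6 stood at 17.1, 15.7 and 14.3 CPM with shTTK, against 18.7, 15.5 and 19.2 CPM with shControl, and these groups overlapped (log2 fold change -0.18 ± 0.085, not called). IFI44 fell by 0.28 on the log2 scale.

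In SCC-15, 2 of the 4 IFIT genes were called higher with shTTK, and of the 5 OAS and PKR genes 2 were higher and 1 lower. IFIT2, which binds AU-rich double-stranded RNA and promotes apoptosis (chromosome 10, 89283694 to 89309276, plus strand), stood at 139, 130.4 and 137 CPM with shTTK, against 87.8, 88.4 and 79.3 CPM with shControl. The groups lay far apart, with a log2 fold change of 0.67 ± 0.050 (edgeR adjusted p = 1.57e-14). IFIT3, its partner, rose by 0.28, while IFIT1 (0.065) and IFIT5 (-0.089) were not called. RSAD2 stood at 3.21, 4.61 and 4.58 CPM with shTTK, against 1.43, 3.44 and 2.35 CPM with shControl. The highest control exceeded the lowest shTTK library, and the log2 fold change was 0.78 ± 0.22 (edgeR adjusted p = 0.00383). Without SCC-15 shControl library 1, the lowest of the 6, it was 0.51 and not called (edgeR adjusted p = 0.0877). OAS2 stood at 12.6, 12.04 and 14.4 CPM with shTTK, against 9.37, 10.8 and 9.44 CPM with shControl, with no overlap (log2 fold change 0.40 ± 0.096, edgeR adjusted p = 0.000686). OASL rose by 0.19 and OAS3 fell by 0.18, and OAS1 was at 22.9, 22.6 and 20.6 CPM with shTTK and 27.5, 24.8 and 20.7 CPM with shControl, which overlapped (-0.15 ± 0.080, not called). The sensors MDA5 (IFIH1) and RIG-I (DDX58) rose by 0.30 and 0.19, and that of RIG-I was lost with DESeq2 and without shControl library 3 or shTTK library 2 or 3.

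The ISG15 pathway and the PARP genes held 3 lower calls each in SCC-15 (50% of 6 and 60% of 5 genes). With edgeR, DESeq2 and limma-voom alike, and also at an unadjusted p under 0.05, the count of higher genes in both groups was 0. Of all genes 13.4% were called higher and 14.3% lower, so 0 higher genes in groups this small is no result about them. UBE2L6 (chromosome 11, 57551656 to 57568284, minus strand) stood at 28.4, 24.5 and 29.7 CPM with shTTK, against 40.8, 44.2 and 43.5 CPM with shControl. It fell well clear of the controls, by 0.64 ± 0.060 on the log2 scale (edgeR adjusted p = 2.09e-14). HERC6 fell by 0.46 and TRIM25 by 0.13, a call lost without shTTK library 2 (-0.089). The log2 fold change of ISG15 itself was 0.014, that of HERC5, the main human ISG15 ligase, 0.15, and that of USP18, which removes ISG15, 0.10, none of them called. PARP12, DTX3L and PARP14 fell by 0.37, 0.21 and 0.14, with PARP14 no longer called without shControl library 1 (-0.11). PARP10 was at 45.8, 43.3 and 41.6 CPM with shTTK and 45.7, 47.2 and 46.4 CPM with shControl, which overlapped (-0.093 ± 0.060, not called). DDX60, a helicase reported to assist RIG-I (chromosome 4, 168216293 to 168318807, minus strand), stood at 24.5, 28.8 and 27.6 CPM with shTTK, against 40.3, 39.4 and 39.3 CPM with shControl. The groups were apart, with a log2 fold change of -0.56 ± 0.068 (edgeR adjusted p = 2.07e-10).

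The effectors TNFSF10 and SAMD9 went opposite ways in SCC-15. TNFSF10 stood at 75.3, 76.8 and 74.4 CPM with shTTK, against 102, 91.4 and 89.5 CPM with shControl, with no overlap (log2 fold change -0.32 ± 0.053, edgeR adjusted p = 8.23e-07). SAMD9 stood at 162, 164 and 169 CPM with shTTK, against 151, 141 and 144 CPM with shControl, and its groups were also apart (log2 fold change 0.18 ± 0.038, edgeR adjusted p = 9.82e-05). Its neighbour SAMD9L fell by 0.32 ± 0.12, a call close to the threshold (edgeR adjusted p = 0.0464) that 14 alternatives ended. Among these were DESeq2, limma-voom and 8 of the libraries left out singly, and without SCC-15 shTTK library 1 the log2 fold change was -0.23 (edgeR adjusted p = 0.236). BST2 rose by 0.22, HELZ2, a helicase that coactivates nuclear receptors, by 0.32, PLSCR1, a phospholipid scramblase that blocks viral entry, by 0.18 and LGALS3BP by 0.081. The call of LGALS3BP was lost without SCC-15 shTTK library 1 (0.049), shControl library 1 (0.076) or shControl library 3 (0.083). The 4 transcription factors had 0 calls in SCC-15 with edgeR, DESeq2 or limma-voom, and 0 at an unadjusted p under 0.05. Of all genes 27.7% were called in SCC-15, so 0 of 4 is no result about these factors. There IRF9 stood at 0.933, 1.21 and 1.01 CPM with shTTK and 1.03, 1.21 and 1.52 CPM with shControl, and IRF7 at 12.6, 11.6 and 9.84 CPM with shTTK and 10.3, 11.2 and 8.97 CPM with shControl. Both overlapped between groups, and so did MX1, at 2.68, 1.38 and 1.90 CPM with shTTK and 3.37, 2.47 and 2.23 CPM with shControl (-0.44 ± 0.19), MX2 (0.086 ± 0.29) and GBP1 (-0.23 ± 0.25). XAF1 had 0 counts in all 6 SCC-15 libraries.

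The 2 lines were set against each other gene by gene. Of the 58 genes, 17 were called in both lines, which is 48.6% of the 35 called in CAL-27 and 58.6% of the 29 called in SCC-15. Among all 16946 genes, 4618 were called in CAL-27, 4694 in SCC-15 and 1981 in both. Both lines were higher with shTTK in 6 of the 17, namely IFI27, SAMD9, OAS2, RSAD2, BST2 and HELZ2. In 10 the gene was higher in CAL-27 and lower in SCC-15, namely IFI44L, IFI44, SAMD9L, OAS3, PARP14, DTX3L, TRIM22, TRIM25, UBE2L6 and TNFSF10. LGALS3BP was lower in CAL-27 and higher in SCC-15. Opposite calls thus made up 11 of 17 (64.7%), and among all genes called in both lines they made up 815 of 1981 (41.1%). Under every alternative tried, 12 of the 17 were called in both lines, 5 in the same direction (IFI27, SAMD9, OAS2, BST2 and HELZ2) and 7 in opposite directions (IFI44L, IFI44, OAS3, DTX3L, TRIM22, UBE2L6 and TNFSF10). No call in either line was made for 11 of the 58, among them CMPK2, USP18, EIF2AK2 and GBP3. The share of all genes called in neither line was not counted, so this count is a description only. Per line, 35 of the 58 were called in CAL-27 and 29 in SCC-15, against 27.3% and 27.7% of all genes.

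The difference between the lines was tested by subtracting the log2 change in CAL-27 from that in SCC-15. TTK itself stood at 68.6% of its control level in CAL-27 and 43.1% in SCC-15 (difference -0.67 ± 0.093, edgeR adjusted p = 2.37e-08). Cell line and extent of knockdown therefore cannot be told apart in this comparison. The difference was called in 38 of the 58 genes, 10 above 0 and 28 below 0. Of all genes 25.4% were called by this test, 13.3% above 0 and 12.1% below, and the median difference was -0.24 for the 58 genes and 0.0015 for all genes. IFI44L differed most, by -2.34 ± 0.27 (SE) on the log2 scale (edgeR adjusted p = 6.96e-11), since its 2 changes had opposite signs. TRIM22 differed by -1.90 ± 0.22 (edgeR adjusted p = 3.75e-11) and TNFSF10 by -1.17 ± 0.087 (edgeR adjusted p = 7.09e-19). EPSTI1 differed the other way, by 1.66 ± 0.34 (edgeR adjusted p = 7.81e-05). IFI27, higher in both lines, rose less in SCC-15, with a difference of -1.11 ± 0.20 (edgeR adjusted p = 1.07e-05), and so did SAMD9 (-0.43 ± 0.058, edgeR adjusted p = 6.42e-09). OAS2 (-0.18 ± 0.11) and RSAD2 (0.26 ± 0.29) had differences that were not called. IRF9 differed by -1.17 ± 0.40 (edgeR adjusted p = 0.0244), a call lost with no count filter and without any 1 of 4 libraries. XAF1 was among the genes not called, and it counts in the median with an SCC-15 change of 0 because it had no counts in that line. Without both SCC-15 libraries numbered 1, 11 differences were above 0 and 26 below, and those of HERC6 (-0.29), IFI16 (-0.11) and SP100 (-0.24) were no longer called. Newly called differences are included in these counts and are not listed.

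In their control libraries the lines also differed in these genes. In SCC-15 shControl libraries, 17 of the 58 were higher and 38 lower than in CAL-27 shControl libraries, and 3 were not called. Of all genes 76% were called in this comparison, 37.8% higher and 38.2% lower. All SCC-15 controls lay above all CAL-27 controls in 17 of the 58 genes and below them in 39, against 38.2% and 39.1% of all genes. The median was -0.56 for the 58 genes, also with XAF1 at its bound, and -0.011 for all genes. At least a 2-fold difference was found for 6 higher and 19 lower genes. The share of all genes at that cut was not counted, so these 2 counts are a description only. XAF1 was at 0 counts in SCC-15 and averaged 1.95 ± 0.0741 CPM in CAL-27 controls (SD, n = 3), so it was at least 33.7-fold lower in SCC-15, taking 3 counts over the group as the floor. That bound covers counting error only. The opposite-strand locus PRAL shares 38.3% of the XAF1 exon bases.

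By the median of each role group, the GTPases stood lowest in SCC-15 relative to CAL-27 (-3.70), with all 5 called lower. Their differences were uneven, and GBP3 (-0.44, 19.6 CPM in SCC-15 and 26.6 CPM in CAL-27 controls) differed least. GBP1 averaged 4.41 ± 0.491 CPM in SCC-15 and 150.2 ± 18.7 CPM in CAL-27 controls (SD, n = 3 each), which is 2.93% of the CAL-27 level. The log2 fold change was -5.09 ± 0.13 (edgeR adjusted p = 6.74e-13). MX1 averaged 2.69 ± 0.603 CPM in SCC-15 and 80.2 ± 1.61 CPM in CAL-27 controls, or 3.36% (log2 fold change -4.89 ± 0.094, edgeR adjusted p = 3.42e-57). MX2 averaged 1.08 ± 0.112 and 14.1 ± 0.612 CPM in the SCC-15 and CAL-27 controls, or 7.68% (log2 fold change -3.70 ± 0.18, edgeR adjusted p = 1.29e-29). No control library of either line came near the other for GBP1, MX1 and MX2. EPSTI1 averaged 0.519 ± 0.0936 CPM in SCC-15 and 7.51 ± 0.718 CPM in CAL-27 controls (log2 fold change -3.83 ± 0.24, edgeR adjusted p = 1.45e-24). CMPK2, a mitochondrial nucleotide kinase next to RSAD2, averaged 1.40 ± 0.273 CPM in SCC-15 and 11.3 ± 1.72 CPM in CAL-27 controls (-3.00 ± 0.19, edgeR adjusted p = 1.96e-24). In neither line was CMPK2 called with shTTK. It stood at 12.9, 12.7 and 14.1 CPM in CAL-27 shTTK and 12.1, 12.4 and 9.29 CPM in CAL-27 shControl libraries, and at 1.05, 2.42 and 1.62 CPM in SCC-15 shTTK and 1.71, 1.21 and 1.29 CPM in SCC-15 shControl libraries.

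Other genes were higher in SCC-15 controls. OASL averaged 193 ± 7.18 CPM in SCC-15 and 34.7 ± 1.80 CPM in CAL-27 controls (log2 fold change 2.47 ± 0.045), TNFSF10 94.3 ± 6.82 CPM in SCC-15 and 20.2 ± 2.09 CPM in CAL-27 (2.22 ± 0.063), and BST2 291 ± 1.88 CPM in SCC-15 and 80.4 ± 2.18 CPM in CAL-27 (1.85 ± 0.037). On the log2 scale, IFIT1 was 1.62 higher in SCC-15 and SAMD9 was 1.14 higher. Per kb of exon, the genes with the highest control level were ISG15 (261), BST2 (260) and LGALS3BP (139 CPM per kb) in SCC-15, and LGALS3BP (222), ISG15 (216) and BST2 (71.8 CPM per kb) in CAL-27. DHX58, IRF9 and IFI16 were the 3 genes not called between the lines. Without both SCC-15 libraries numbered 1, 16 genes were higher and 38 lower, and DDX60L (0.17) and IFI44L (-0.36) were no longer called. Genes newly called in that fit are included in its counts and are not listed. The control-line comparison shares its libraries with both knockdown comparisons, so the values are given side by side without a relation between them.

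**Figure D3:**
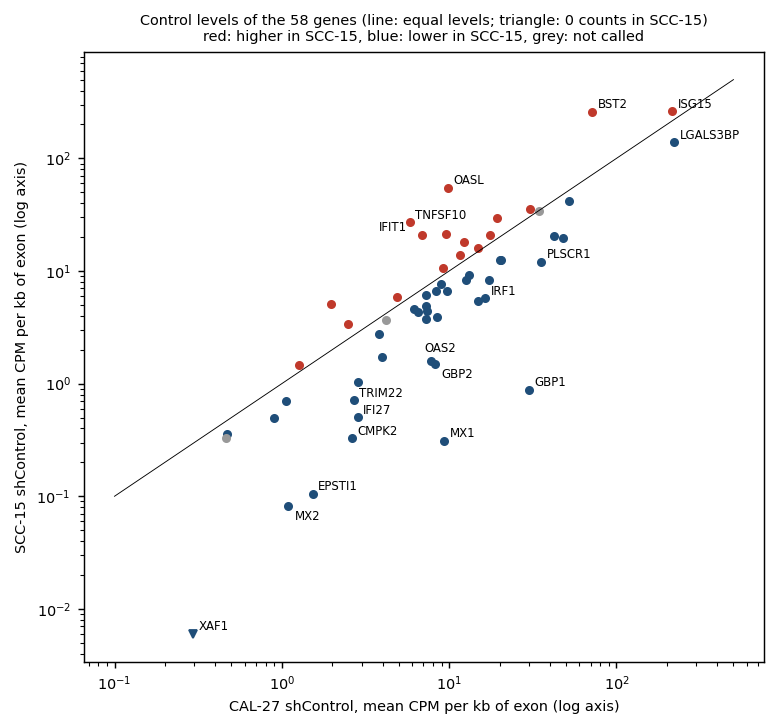
Mean control level per kb of exon in SCC-15 (y axis, log scale) against CAL-27 (x axis, log scale), 1 point for each of the 58 genes, with the line of equal levels. Most points lie under the line, XAF1 (triangle) had 0 counts in SCC-15, and GBP1 and MX1 lie furthest under the line among genes with counts in both.

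The genes that start and relay the signal were counted from lists of pathway genes, to be read against all genes, of which 11.6% were higher and 15.7% lower in CAL-27, and 13.4% higher and 14.3% lower in SCC-15. Shares near these, such as 10% of the receptor and JAK-STAT genes higher in SCC-15, or 9.09% and 18.2% of the negative regulators higher in CAL-27 and SCC-15, are no result about those lists. Of 21 interferon genes only IFNE passed the count filter, and it was not called in CAL-27 (log2 fold change 0.21) or SCC-15 (0.18). IFNG and IFNK had 0 CPM in all 4 groups, and IFNB1 averaged 0 CPM in 3 groups and 0.178 CPM in CAL-27 shControl. Of the 10 receptor and JAK-STAT genes, 4 (40%) were higher and 2 (20%) lower in CAL-27, and 1 (10%) was higher and 3 (30%) lower in SCC-15. IFNGR1, a subunit of the interferon gamma receptor, rose by 0.32 in CAL-27. In SCC-15, JAK1 averaged 60.5 CPM with shTTK and 107 CPM with shControl (log2 fold change -0.83, edgeR adjusted p = 7.25e-27), and IFNAR1 averaged 28.6 CPM with shTTK and 39.8 CPM with shControl (-0.47, edgeR adjusted p = 4.68e-09). Both also fell in CAL-27, JAK1 by 0.15 and IFNAR1 by 0.24.

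Of 14 tested adaptors and kinases that lead to interferon production, 5 (35.7%) were higher and 4 (28.6%) lower in CAL-27, and 4 (28.6%) were higher and 3 (21.4%) lower in SCC-15. TLR4, the receptor for lipopolysaccharide, fell by 0.87 in CAL-27, and CGAS, the sensor of cytosolic DNA, averaged 39.6 CPM with shTTK and 48.2 CPM with shControl there (-0.28). In SCC-15, MAVS, the adaptor of RIG-I and MDA5, rose by 0.52 and IRF3, the factor it activates, by 0.32. Of 11 negative regulators, 1 was higher and 3 (27.3%) lower in CAL-27, and 2 were higher in SCC-15. SOCS3, which blocks cytokine receptors, averaged 191 CPM with shTTK and 283 CPM with shControl in CAL-27 (-0.57), and 33.5 CPM with shTTK and 24.3 CPM with shControl in SCC-15 (0.46). TRIM28, a corepressor that silences retroelements, fell by 0.29 in CAL-27 and rose by 0.13 in SCC-15. Of 15 tested genes that answer mainly interferon gamma, 5 (33.3%) were higher and 1 (6.67%) lower in CAL-27, and 1 (6.67%) was higher and 3 (20%) lower in SCC-15. ICAM1, an adhesion molecule also driven by NF-kB, averaged 10.8 CPM with shTTK and 23.7 CPM with shControl in SCC-15 (-1.14), and WARS rose there by 0.21. APOL2 and APOL6 rose by 0.27 and 0.25 in CAL-27, but their counts were nearly equal in every library, so both are uncertain.

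Position in the genome was not used to choose the genes. In 11 places 2 or more of the 58 lie within 200 kb of each other, 27 genes in all. The 3 genes PARP9, DTX3L and PARP14 on chromosome 3 (122527924 to 122730840) kept close to each other, between 0.18 and 0.25 in CAL-27 and between -0.21 and -0.09 in SCC-15. PARP9 and DTX3L share a short stretch of exon on opposite strands. Neighbours parted in the IFIT genes of chromosome 10 (89283694 to 89421001), where IFIT1 was the only call in CAL-27 and IFIT2 and IFIT3 the only calls in SCC-15. They also parted in SAMD9 and SAMD9L on chromosome 7, which were 0.18 and -0.32 in SCC-15, both called. OAS1, OAS2 and OAS3 on chromosome 12 were all called higher in CAL-27, and in SCC-15 OAS2 was higher and OAS3 lower.

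Chromosome 4 as a whole was lower in SCC-15 shTTK, with a median log2 fold change of -0.25 over 475 genes. The medians of the other 18 chromosomes that hold any of the 58 lay between -0.09 and 0.14. DDX60 and HERC6, both called lower there, lie on this chromosome, as do DDX60L and HERC5. The 24 tested genes that flank DDX60, 12 on each side, had a median of -0.31, beside -0.56 for DDX60 itself. Those around HERC6 had a median of -0.24, beside -0.46. HERC5, with 0.15, and DDX60L, with -0.12, stood above their flanking medians of -0.27 and -0.33. The part of this regional shift in the calls of DDX60 and HERC6 was not tested. In CAL-27 the chromosome 4 median was -0.027, and 0 of the 4 genes were called with edgeR, DESeq2 or limma-voom, or at an unadjusted p under 0.05. Of all genes 27.3% were called in CAL-27, so 0 of 4 is no result about these genes.

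**Figure D4:**
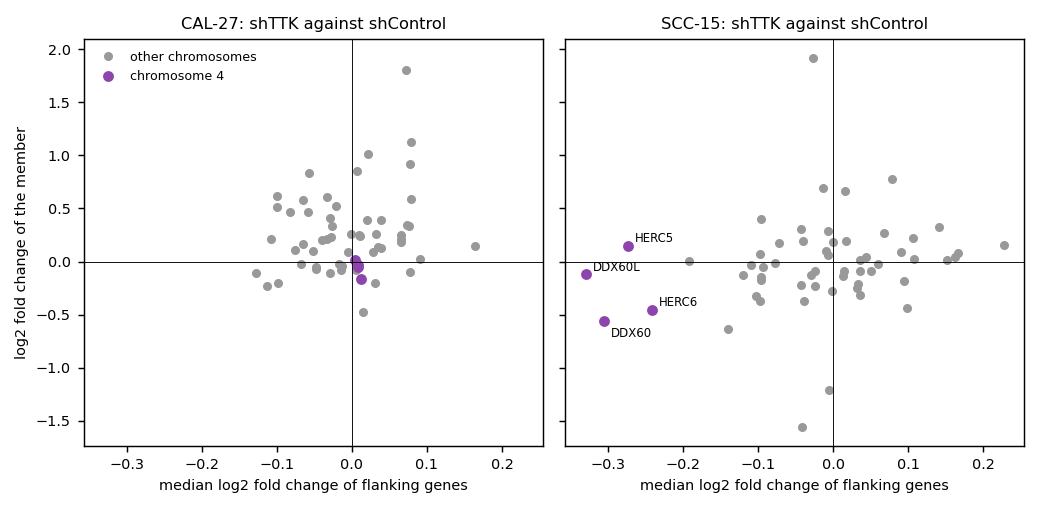
Log2 fold change of each gene (y axis) against the median log2 fold change of its 24 flanking genes (x axis), shTTK against shControl in CAL-27 (left) and SCC-15 (right), with the 4 genes of chromosome 4 in purple. Only in SCC-15 do these 4 lie left of the other points, with flanking medians of -0.33 to -0.24, while the largest changes in either line belong to genes whose neighbours lie near 0.

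The promoters were searched for the binding letters of the factors above. RefSeq promoters (250 bases before to 50 after a start, GRCh38.p14) were found for 48 of the 58 genes. The 10 without an entry were IFIT2, MX2, OAS2, OASL, USP18, DHX58, IRF7, PARP10, TRIM22 and GBP2. The ISRE letters (GAAA, any 2 bases, GAAA, on either strand) were in 31 of the 48 (64.6%), against 4.38% of all 27305 genes with a promoter. The GAS letters TTCNNNGAA, which read the same on both strands and are bound by pairs of STAT factors, were in 13 (27.1%), against 9.38% of all genes. Of 56 ISRE matches, in which starts of the same gene can share a match, 7 overlapped GAS letters and 10 overlapped another ISRE match. The matches began between 196 bases before and 23 bases after the start, 52 of them before it, with a median of 89.5 bases before it.

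The calls of genes with and without these letters are given side by side, with no test. In CAL-27, 15 of the 31 genes with the ISRE letters were higher and 2 lower (median log2 fold change 0.16), and of the 17 without them 11 were higher and 1 lower (0.21). In SCC-15, 9 of the 31 were higher and 9 lower (-0.09), and of the 17 without them 2 were higher and 4 lower (-0.02). IFI27, IFI44L, TNFSF10 and EPSTI1, whose promoters are printed above, all hold the letters, which follows from how the printed starts were chosen. Their changes in the lines ran in different directions. OAS1, IRF9, XAF1 and UBE2L6 hold none in these windows, and a missing match says only that these letters were not found there.

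**Figure D5:**
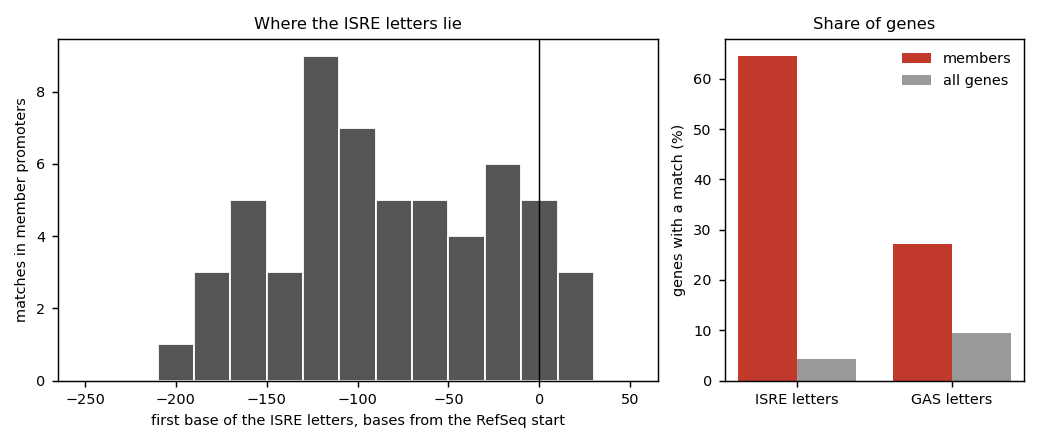
Left, the first base of each of the 56 ISRE matches in promoters of the 48 genes with a RefSeq entry (x axis, bases from the transcription start; y axis, number of matches). Right, the share of genes with a match (y axis, percent) among these 48 genes and among all genes, 64.6% and 4.38% for the ISRE letters and 27.1% and 9.38% for the GAS letters.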

How the data were processed

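The authors deposited 1 table of raw counts per gene symbol for 12 libraries, 3 in each of 4 groups, with no normalization. Per the labels' protocols, poly(A) RNA was made into strand-specific libraries and read as pairs of 150 bases on a NovaSeq 6000. The submitters' processing notes name hg38 as the build and featureCounts 2.0.1, STAR 2.7.7a and Trim Galore 0.6.6 as tools. How strand and multi-mapping reads were handled is not stated in the sources used here. The table's 58735 lines (1568 repeat a symbol) were kept as separate features, and 0 columns could not be mapped to a sample. Positions are those of GENCODE release 29 on GRCh38.

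Genes were filtered with filterByExpr (16946 kept) and TMM-scaled, and edgeR 4.0.16 in R 4.3.3 fitted a robust quasi-likelihood model with 4 group means (8 residual degrees of freedom, common biological coefficient of variation 0.0393). P-values were two-sided, adjusted by Benjamini-Hochberg over all tested genes, with calls under 0.05. Alternatives were RLE factors, DESeq2 1.42.0, limma-voom (limma 3.58.1), no count filter, 1 CPM in 3 libraries, each line or the controls alone, the replicate number as a block, each library left out, and both SCC-15 libraries numbered 1 left out. Steps were tested on simulated data.

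The members and lists were chosen with earlier results of these data known. Genes given values by rule were TTK, the 8 called members with the largest change per knockdown comparison, the 6 per remaining comparison (each at 1 CPM or more in the higher group), and the member with the lowest adjusted p of each of 11 role groups, 21 members in all. Up to 2 genes per pathway list were named likewise. Any other gene named in the text was chosen after its values were seen. Values of 1 pathway gene are not reported here.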

Additional observations from a re-analysis of the deposited data

Results flagged for a closer look

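For 14 of the 21 members named by rule, the SCC-15 change and the CAL-27 change differed by the edgeR test of the difference itself (adjusted p under 0.05 over all genes). Of all genes 25.4% were called by this test. The rule took 6 members for this same difference and most others for a large change in 1 line. The count and its directions thus follow in part from the choice and are no test. Values are the SCC-15 log2 fold change minus the CAL-27 one.

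The difference was below 0 in 11 of the 14. For IFI44L it was -2.34 and for TRIM22 it was -1.90, and in both genes all 3 shTTK libraries lay above the controls in CAL-27 and below them in SCC-15. The same split held for TNFSF10 (-1.17) and UBE2L6 (-0.84). IFI27 (-1.11) and SAMD9 (-0.43) were higher with shTTK in both lines and less so in SCC-15. IRF9 (-1.17), IFI6 (-1.01), MX1 (-0.78) and OAS1 (-0.76) were higher in CAL-27, and their groups overlapped in SCC-15. The MX1 difference was -0.58 and not called without SCC-15 shControl library 1 (edgeR adjusted p = 0.0523). DDX60 (-0.57) was lower in SCC-15, where its flanking genes had a median of -0.31, and its groups overlapped in CAL-27.

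The difference was above 0 for EPSTI1 (1.66), IFIT2 (0.69) and PARP10 (0.39). EPSTI1 and IFIT2 were called higher in SCC-15, and PARP10 was called lower in CAL-27.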

How the results depend on the processing

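The counts of called genes and the medians kept their direction, and the counts stayed within 1.5 times, under every alternative that kept all 12 libraries. Leaving out 1 library at a time gave 29 to 32 higher and 2 to 4 lower genes in CAL-27 (median 0.17 to 0.22), and 12 to 14 higher and 12 to 17 lower in SCC-15 (median -0.046 to -0.0043). The difference between lines gave 7 to 10 above 0 and 26 to 29 below (median -0.27 to -0.22), and the control lines 14 to 17 higher and 36 to 39 lower in SCC-15 (median -0.60 to -0.52). The 2 lower genes in CAL-27 came without CAL-27 shControl library 2. Without both SCC-15 libraries numbered 1, SCC-15 had 14 higher and 12 lower genes. Counts under an alternative include genes newly called by it, so a similar count need not hold the same genes.

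Every alternative kept 29 higher and 2 lower genes in CAL-27, 11 higher and 10 lower in SCC-15, and 7 above 0 and 23 below in the difference. Some alternative ended the call of 4 genes in CAL-27 (IRF1, LGALS3BP, RSAD2 and SP100) and of 8 in SCC-15 (DDX58, GBP2, LGALS3BP, PARP14, RSAD2, SAMD9L, TRIM14 and TRIM25). No call turned its sign. The cause was not tested. The IRF9 difference had an edgeR adjusted p of 0.0525 with no count filter, and of 0.0535 to 0.0897 without CAL-27 shTTK library 1, CAL-27 shControl library 2, SCC-15 shTTK library 1 or SCC-15 shControl library 3.

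The replicate numbers share nothing beyond the number in the labels, and same-numbered libraries did not deviate together (correlations between -0.020 and 0.034). With the replicate number as a block, the counts were the same as without it, 31 higher and 4 lower in CAL-27, 14 and 15 in SCC-15, 10 and 28 in the difference, and 17 and 38 between the controls.

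Depth limits the low genes. XAF1 had 0 counts in SCC-15, and IRF9, EPSTI1 and MX2 stood near 1 CPM there.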
